A study of Mus musculus with 2 samples.

Results

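This account covers 36 genes of the mitochondrial and death receptor pathways of apoptosis: the BCL2 family, caspases, factors of the apoptosome, inhibitors of apoptosis and death receptor adaptors. The rule uses gene symbols and no measured value, but the members were chosen with earlier results of these data known. Every probe set annotated to 1 of these symbols alone was taken. That gave 93 probe sets for 34 genes, out of 45101 probe sets and 18194 genes on the array. RNA came from NIH3T3 cells, an immortalised line of mouse embryonic fibroblasts grown in DMEM with fetal bovine serum. The CCR4b RNAi group was infected with a retrovirus carrying a hairpin against CCR4b (CNOT6L), a deadenylase of the CCR4-NOT complex that shortens mRNA poly(A) tails, and the Control RNAi group with a control hairpin virus. Both groups therefore carried an RNAi virus. The comparison asks which mRNAs differ when CCR4b is depleted. Each group is 1 array of 1 sample, so there is no replicate error and no test, and every difference is one between these arrays, stated as CCR4b RNAi against control RNAi.

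BCL2 proteins decide whether the outer mitochondrial membrane is opened. Survival members such as BCL2, BCL-XL and MCL1 hold the pore-forming effectors BAX and BAK in check, and BH3-only proteins relieve that block or activate the effectors. Once the membrane opens, cytochrome c joins APAF1 in the apoptosome and activates caspase-9, while inhibitors of apoptosis (IAPs) restrain caspases until SMAC/DIABLO displaces them. Death receptors reach the caspases through adaptors such as TRADD and FADD.

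Signals are arbitrary units on a linear scale. Values under a floor of 8.07 units, the middle of all values on both arrays, were raised to it before log2 ratios were taken, and a gene counted as measured where its brightest probe set reached the floor on at least 1 array. The brightest probe set, by mean log2 signal, stood for its gene. Each ratio is set beside the spread among genes of similar signal, given as a robust SD from the median absolute deviation. Of the 36 genes, 32 were measured, and 28 of these were above the floor on both arrays. Bik and Casp1 stayed below it on both, at no more than 3.63 units on any probe set. Ripk1 has no probe set under its own symbol here, and the 3 probe sets of Bcl2a1a are shared with its paralogs, so both were not analysed here. The median log2 ratio of all 11915 measured genes was -0.070, with a robust SD of 0.49.

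The targeted gene, Cnot6l, went from 102 units to 43.0 after CCR4b RNAi, 2.38-fold lower, and was lower on all 4 probe sets. The cultures had a fibroblast profile. All 10 fibroblast markers were measured on both arrays, between 221 and 4022 units in the control and between 130 and 3993 units after CCR4b RNAi, and their summed signals were 17669 and 20149 units. Thy1 was the marker past 1.5-fold lower (log2 ratio -0.76), and Lum and Col1a1 were past it higher (0.71 and 0.60). Of 5 endothelial markers, 0 reached the floor. Of 6 epithelial markers, Epcam alone did (19.4 and 29.5 units), and of 5 leukocyte markers with a probe set, Cd68 (24.0 and 9.42 units), Adgre1 (13.7 and 9.13) and Lyz2 (6.17 and 22.9) did. The summed leukocyte signal was 50.5 and 47.1 units. In such bulk RNA, fewer cells expressing a gene and less RNA per cell cannot be told apart.

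Neither the survival nor the death-promoting members all lay on one side of 0. Tradd and Cycs, which encodes cytochrome c, were lower on all 3 probe sets that measured them, and Bcl2l12 and Diablo on all 2. Bok, Casp2, Aifm1, Casp8, Casp4 and Ripk3 were lower on 1 probe set each, the only one that measured them. The survival gene Birc6 was lower on its brightest. The survival genes Bcl2, Bcl2l1, Bcl2l2 and Mcl1 were higher on their brightest probe sets, and so were all 5 measured BH3-only genes, which promote death (Bad by a margin that turned negative after division by the array median). With calls made from 1.5-fold upwards, 4 of the 32 measured members were higher (12.5%, where 11.3% of all measured genes were) and 8 were lower (25%, against 14.6% of all measured genes). All the higher calls but that of Bcl2l2 came from genes below the floor in the control. Among the 28 members that reached the floor on both arrays, 1 was higher (3.57%, against 10.4% of such genes) and 8 were lower (28.6%, against 15.2%). The direction of the members as a whole was not settled: their median log2 ratio was 0.028 over the 32 and -0.095 over the 28, close to the medians of all genes (-0.070 and -0.089). The split between higher and lower calls depended on scaling. Quantile normalization gave 7 higher and 7 lower members, where 12.0% and 13.0% of all measured genes were higher and lower. A loess correction gave 7 and 6 members, against 12.3% and 12.6% of genes. Division by the array median gave 3 and 10 members, against 9.09% and 19.0%.

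**Figure D1:**
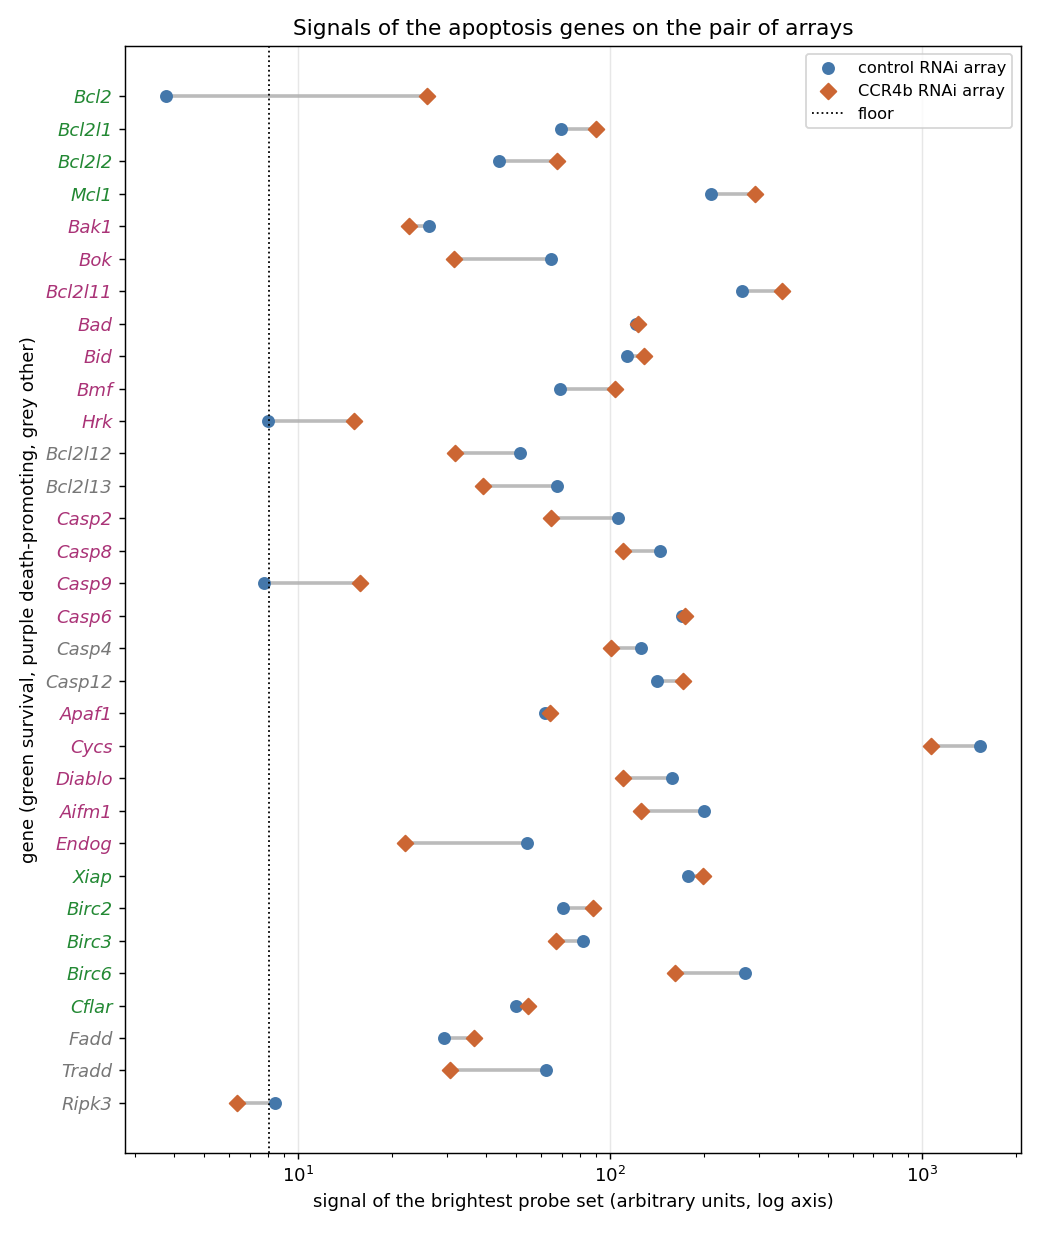
Signal of the brightest probe set (arbitrary units, log axis) of the 32 measured members, with the control RNAi array as circles and the CCR4b RNAi array as diamonds, 1 array each. The dotted line is the floor of 8.07 units, and Bcl2, Hrk and Casp9 start below it in the control, while Ripk3 passes below it after CCR4b RNAi.

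The genes of the survival BCL2 proteins were higher on the brightest probe set of each of the 4 that were measured. Bcl2l1, Bcl2l2 and Mcl1 each lay more than 1 robust SD above the median of genes of like signal. Bcl2 was measured through the CCR4b RNAi array alone, so it had to be higher to be counted. Over all measured genes 15.2% lay that far above and 15.5% that far below, and among the members 8 of 32 did in each direction. Those above include Bcl2 and Casp9, both measured through the CCR4b RNAi array alone, so the equal counts depend on that filter. Bcl2l2, which encodes BCL-W, went from 44.1 to 67.9 units with CCR4b depletion, 1.54-fold higher (log2 ratio 0.62, robust SD 0.50). Its other 3 probe sets stayed below the floor on both arrays, so this gene rests on 1 probe set, and its log2 ratio was 0.53, within 1.5-fold, after division by the array median. Mcl1, a short-lived survival protein, had 6 probe sets, all above the floor. The one with the highest mean signal went from 211 to 292 units (log2 ratio 0.46, robust SD 0.41), and 4 others were also higher, by log2 ratios of 0.12 to 0.58. The remaining Mcl1 probe set was lower, from 252 to 187 units (-0.44). The 3 Mcl1 probe sets with log2 ratios of 0.46, 0.58 and 0.28 carry identifiers that mark possible cross-hybridisation, and without them the gene is represented by the lower one.

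Bcl2l1, which encodes BCL-XL, differed among its own probe sets. The brightest went from 69.8 to 90.1 units (log2 ratio 0.37), a second from 24.5 to 21.7 (-0.18) and another from 18.3 to 9.66 (-0.92). The direction thus held for the brightest probe set alone. Bcl2, the founding member of the family, was dim. Its brightest probe set had 3.78 units in the control, under the floor, and 26.0 units with CCR4b depletion, at least 3.22-fold higher. A second probe set was above the floor in the control alone (10.8 and 7.54 units, at least 1.33-fold lower), and the other 3 stayed below the floor, so the array gave no settled direction for Bcl2.

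The BH3-only genes, the sensors that trigger the pathway, were above their control signals on the brightest probe sets of all 5 measured, Hrk through the CCR4b RNAi array alone. Bmf, a BH3-only protein that responds to loss of adhesion, went from 69.3 to 104 units on its brightest probe set, a log2 ratio of 0.58 that is just under 1.5-fold. Its other probe sets read 13.2 and 18.6 units (0.49) and 13.3 and 13.7 units (0.047). The first 2 are open to cross-hybridisation. All 3 Bmf probe sets were higher, by unequal amounts.

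Bcl2l11, which encodes BIM, had 3 bright probe sets that were higher and 2 dim ones that were lower. The bright ones went from 265 to 355 units, from 82.8 to 116 and from 42.8 to 54.4, with log2 ratios of 0.42, 0.48 and 0.34. The dim ones went from 26.4 to 22.8 units and from 17.4 to 14.8 (-0.21 and -0.24). The brightest probe set lay above the class median by more than the robust SD of 0.41.

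Hrk, a BH3-only gene best known from neurons, was just below the floor in the control (8.01 units) and lay above it at 15.1 with CCR4b depletion, at least 1.88-fold higher. That is within the robust SD of 0.84 among genes so dim, once their median of 0.10 is taken off. Bid, which links death receptors to mitochondria, had log2 ratios of 0.17 and 0.057 on its brighter probe sets and -0.66 on a dim one. Bad, whose protein is held inactive by survival signalling, read 121 and 123 units (log2 ratio 0.024), a value that turned to a negative one after division by the array median.

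The effectors showed a different picture. Bok, a relative of BAX and BAK, has 1 probe set, which went from 64.6 to 31.6 units, 2.05-fold lower (log2 ratio -1.03, robust SD 0.57). Bak1 went from 26.4 to 22.7 units (-0.21) on its brightest probe set. A second Bak1 probe set, open to cross-hybridisation, went from 5.87 units, under the floor, to 16.7. Bok was thus lower by well over the spread of like genes, and Bak1 had no single direction.

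Of the 2 genes of BCL2-related proteins whose role in death varies with context, both were lower on their brighter probe set. Bcl2l12 went from 51.5 to 31.9 units (1.61-fold lower) and from 11.5 to 9.20 on its dim one (log2 ratio -0.32). Bcl2l13, an outer mitochondrial membrane protein also known as BCL-RAMBO, went from 67.8 to 39.1 units (1.73-fold lower). Its second probe set, which is not much dimmer, read 39.4 and 41.6 units (0.077), so the 2 probe sets of Bcl2l13 disagree.

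**Figure D2:**
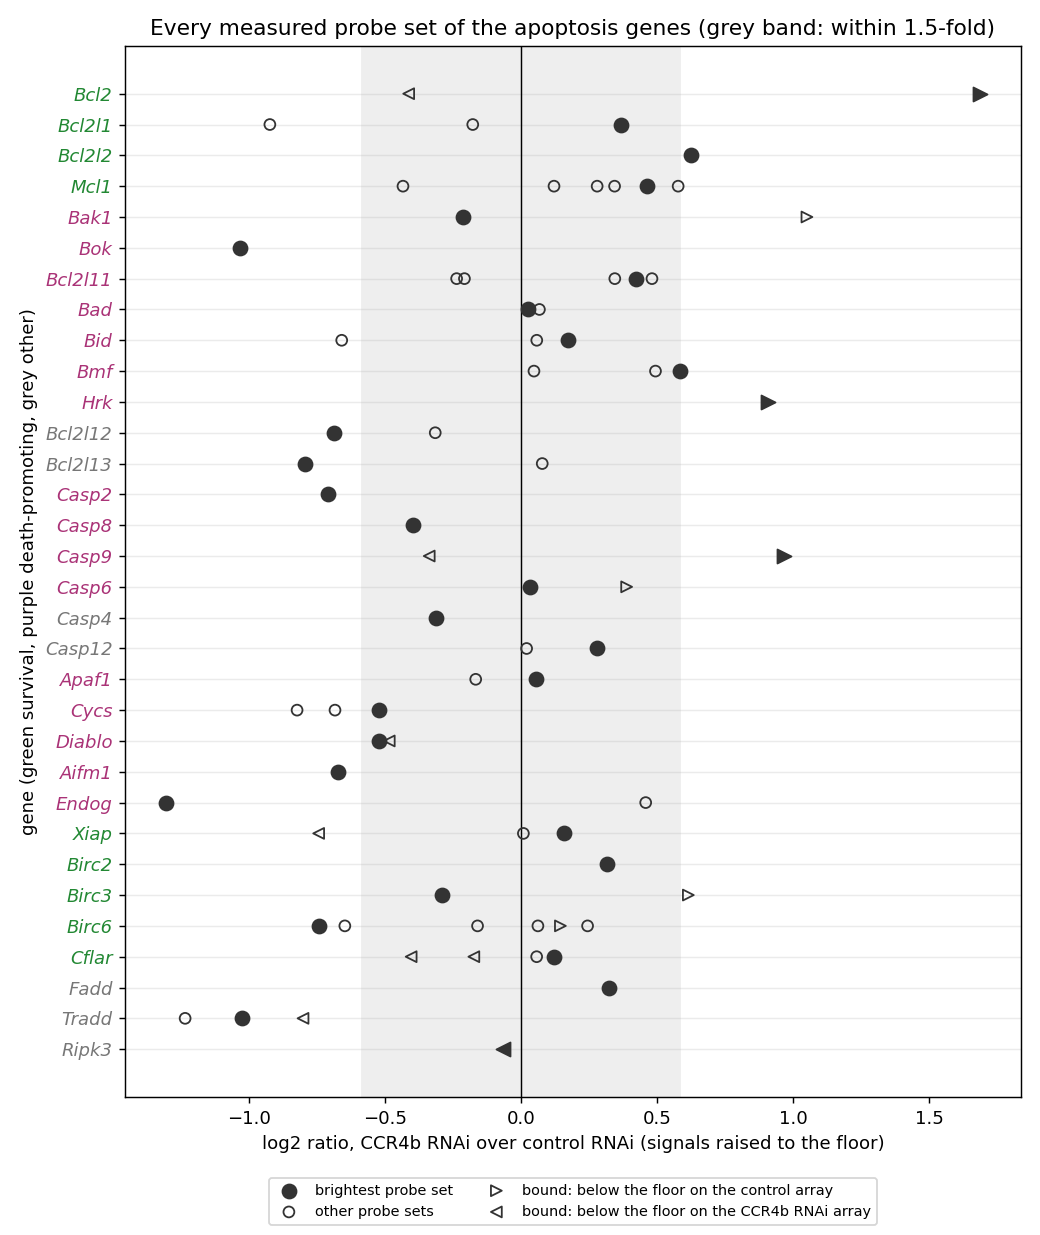
Log2 ratio (CCR4b RNAi over control RNAi) of every probe set of the measured members that reached the floor on at least 1 array, with the brightest probe set of a gene filled and triangles for bounds. Of the genes with several probe sets drawn, Tradd, Cycs, Bcl2l12 and Diablo lie to the left on every one. Endog, Bcl2, Bcl2l1, Mcl1, Birc6, Bak1, Bcl2l11, Bid, Bcl2l13, Casp9, Apaf1, Birc3, Xiap and Cflar have probe sets on both sides of 0.

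Probe sets of a member often disagreed in sign. Where at least 2 probe sets reached the floor on both arrays, 8 of 16 members had all of them on the same side of 0, and 56.5% of all 4550 such genes did. The median distance between the lowest and highest log2 ratio of a gene was 0.46 for these members and 0.43 for all such genes.

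The genes of caspases, the cysteine proteases that dismantle the cell, were mostly within 1.5-fold. Casp2, an initiator caspase linked to DNA damage and mitotic errors, has 1 probe set, which went from 106 to 64.7 units, 1.64-fold lower (log2 ratio -0.71, robust SD 0.43). Casp8, the initiator of the death receptor route, went from 145 to 110 units (-0.40). Casp6, an executioner, read 170 and 174 units (0.031), a sign that flipped when arrays were divided by their median. Casp9, the caspase of the apoptosome, was dim, and its probe sets opposed each other. One went from under the floor (7.78 units) to 15.8 units (at least 1.96-fold higher), and another from 10.2 to 2.51 units (at least 1.26-fold lower).

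Casp4, an inflammatory caspase that senses cytosolic lipopolysaccharide, went from 125 to 101 units (log2 ratio -0.31). Casp12, a rodent caspase located at the endoplasmic reticulum, had 0.28 and 0.020 on its pair of probe sets. Both genes stayed within the robust SD of 0.44 of their signal class.

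The genes of proteins that leave the mitochondria when the membrane opens were lower on their brightest probe sets, all 4 of them. The scaffold gene Apaf1 differed little. Cycs encodes cytochrome c, which also carries electrons in respiration, and its 3 measured probe sets went from 1535 to 1068 units, from 872 to 492 and from 358 to 223. These log2 ratios of -0.52, -0.82 and -0.69 have the same sign, and the one on the brightest probe set was just short of 1.5-fold (1.44-fold). Diablo, the antagonist of IAPs, went from 158 to 110 units (1.44-fold lower), and its second probe set passed from 11.3 units to below the floor.

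Aifm1, a flavoprotein of the inner membrane that can move to the nucleus, has 1 probe set, which went from 201 to 126 units (1.59-fold lower, robust SD 0.41), a difference within 1.5-fold after quantile normalization or loess. Endog, a mitochondrial nuclease, had the lowest ratio of the members on its brightest probe set, which went from 54.3 to 22.0 units (2.47-fold lower, log2 ratio -1.31). On its dimmer probe set Endog went the other way, from 14.3 to 19.6 units (0.46). Apaf1 read 61.9 and 64.3 units (0.055, negative after division by the array median) and 22.8 and 20.3 units (-0.17) on its probe sets. Of the mitochondrial factors, Cycs was thus lower on more than 1 probe set that both arrays measured, Aifm1 and Diablo rest on 1 such probe set each, and Endog is contradicted by its second.

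The IAPs and the decoy Cflar, which brake caspases, had no common direction. Birc2, which encodes the ubiquitin ligase cIAP1, went from 71.0 to 88.4 units (log2 ratio 0.32), and Birc3, its paralog cIAP2, from 82.1 to 67.1 (-0.29). A dim Birc3 probe set went from 6.87 units, under the floor, to 12.4. Xiap, the direct caspase inhibitor, read 178 and 199 units (0.16) and 63.6 and 64.0 units (0.0079) on its bright probe sets and passed from 13.5 units to below the floor on another. Cflar, the caspase-8 decoy c-FLIP, had 0.12 and 0.057 on its bright probe sets and passed below the floor on 2 dim ones.

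Birc6, a giant IAP also known as BRUCE or Apollon, had its brightest probe set 1.67-fold lower, at 271 and 162 units (log2 ratio -0.74). Its other probe sets were dim. Those above the floor on both arrays gave -0.65, -0.16, 0.061 and 0.24, and another went from 5.15 units, under the floor, to 8.92. Of the dim Birc6 probe sets, 2 were thus lower and 3 higher.

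The adaptors of death receptors diverged. Tradd, the adaptor that TNF receptor 1 recruits first, was lower on all 3 probe sets. They went from 62.5 to 30.6 units (2.04-fold lower), from 45.6 to 19.3 (2.36-fold lower) and from 14.1 units to below the floor (at least 1.74-fold lower). The robust SD of its signal class was 0.57. Fadd, which brings caspase-8 to the receptor, went from 29.3 to 36.6 units (log2 ratio 0.32). Ripk3, the kinase of necroptosis, was near the floor on both arrays, at 8.45 and 6.39 units.

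Set side by side, the survival genes had a median log2 ratio of 0.32 (4 genes of BCL2 proteins measured, and 5 genes counted as IAPs, the decoy Cflar among them). The death-promoting genes (effectors, BH3-only proteins, initiator and executioner caspases, apoptosome and mitochondrial factors, 16 measured) had one of -0.095. Among survival genes 7 of 9 were above 0, among death-promoting genes 8 of 16, where the median of all measured genes was -0.070. Bcl2 among the former, and Hrk and Casp9 among the latter, were measured through the CCR4b RNAi array alone. Above the floor on both arrays, 6 of 8 survival genes and 6 of 14 death-promoting genes were above 0. With genes above the floor on both arrays alone, the medians were 0.24 over 8 and -0.31 over 14. In those, 1 of the 8 survival genes was past 1.5-fold higher (Bcl2l2) and 1 lower (Birc6), 12.5% each. Of the 14 death-promoting genes, 0 were higher and 4 lower (Bok, Casp2, Aifm1 and Endog), the latter 28.6%. Among all genes above the floor on both arrays, 10.4% were past 1.5-fold higher and 15.2% lower. No difference of either side from these shares was tested. The death-promoting median turned to 0.024 with a floor at the 25th percentile or with none. The survival median came down to 0.16 when _x_at and _s_at probe sets were left out, or when the median over a gene's probe sets was taken. The death-promoting side was itself split, with a median of 0.42 for the 5 measured BH3-only genes (0.30 for the 4 above the floor on both arrays, without Hrk) and -0.52 for the 5 apoptosome and mitochondrial factors. These roles overlap in the cell, and the difference between the sides was not tested, since there is 1 array per group.

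**Figure D3:**
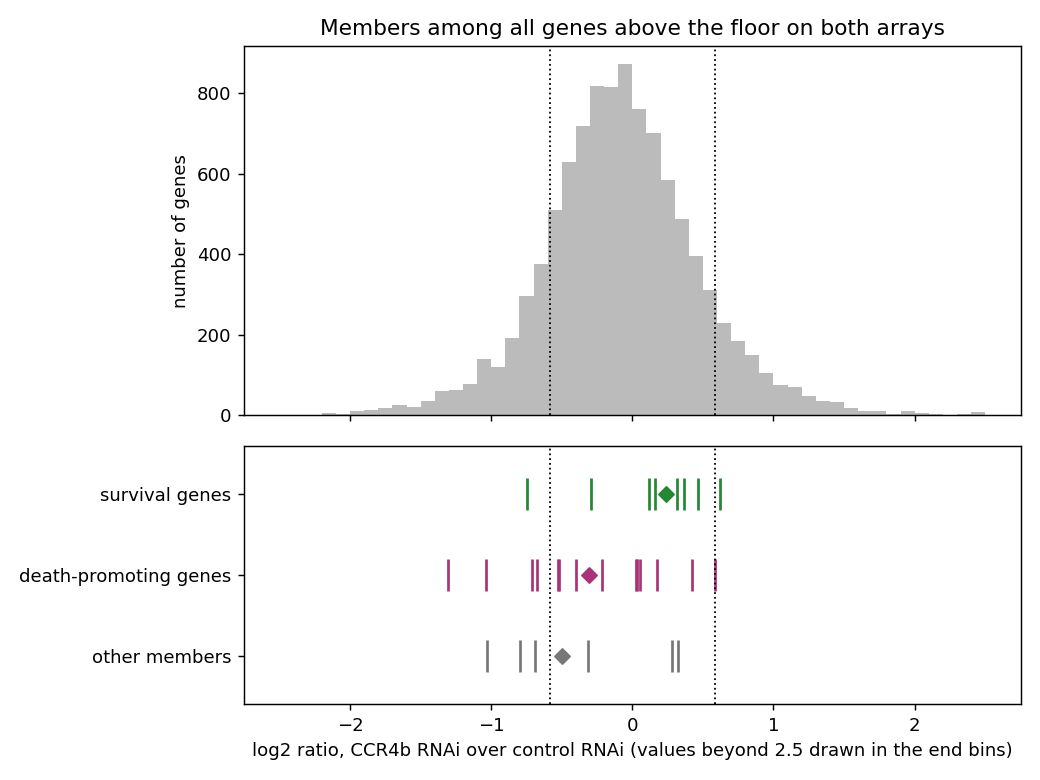
Upper panel, number of genes by log2 ratio (CCR4b RNAi over control RNAi) for the 10060 genes above the floor on both arrays, and lower panel, the 28 members among them as ticks, with a diamond at each median. Dotted lines mark 1.5-fold, and the medians are 0.24 for survival genes, -0.31 for death-promoting genes and -0.50 for the other members.

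Other genes of the pathway were read from a list of 37, chosen by function, of which 25 were measured. On their brightest probe sets 3 were at least 1.5-fold higher and 2 lower (12% and 8%, against 11.3% and 14.6% of all measured genes), with a median log2 ratio of -0.072. Birc5, which encodes survivin, an IAP that also serves the chromosomal passenger complex in mitosis, went from 455 to 156 units (2.93-fold lower). Htra2, a mitochondrial protease that antagonises IAPs, went from 150 to 98.6 units (1.52-fold lower) and from 143 to 96.0 on its second probe set, both open to cross-hybridisation. Its log2 ratio came within 1.5-fold with quantile normalization (-0.48) and loess (-0.47).

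Bnip3, a BH3-like mitophagy receptor induced by hypoxia, went from 231 to 530 units (2.29-fold higher). Naip2, which encodes an inflammasome sensor, went from 27.3 to 43.0 units (1.58-fold higher), and Casp14, a caspase of skin, from 12.8 to 24.8 on a probe set open to cross-hybridisation (1.93-fold higher). On their brightest probe sets, all 8 measured genes of the death receptor pathway on this list lay within 1.5-fold. The receptor gene Fas, at 290 and 283 units, was among them. Of all measured genes, 11.3% were at least 1.5-fold higher and 14.6% lower. Dimmer probe sets of Tnfaip3 and Cyld were past 1.5-fold higher (log2 ratios 0.67 and 0.65), and another of Cyld was lower (-0.49). Fasl was above the floor on the control array alone, so its ratio is a bound.

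Promoters were searched for known motifs because several apoptosis genes, Apaf1 among them, are known targets of E2F and other factors. RefSeq promoters (GRCm38.p6, from 250 bases before to 50 after each start) covered 34 of the 36 members and 27025 genes in all. On both strands, an E2F octamer (TTTGGCGC, TTTGCCGC, TTTCGCGC or TTTCCCGC) was found for 3 members, Casp2, Fadd and Bcl2l1. That is 8.82% of the 34 members, where 2.61% of all genes with a promoter hold one. Apaf1 held no such octamer in the bases searched, so the search can miss known targets. The cAMP response element TGACGTCA was found for 2 members, Cycs and Birc2 (5.88% of members, against 2.03% of genes). The FOXO motif TGTTTAC was found for Bcl2l11 and Casp4 (5.88% against 4.05%), and the SP1 motif GGGGCGGGG for 13 members (38.2% against 12.9%). The CHR motifs TTTGAA or TTCGAA were found for 9 members (26.5% against 21.7%) and the E-box CACGTG for 2 (5.88% against 8.09%). CCAAT was found for 11 members (32.4% against 41.1%) and the p53 half-site cores CATGTC or CTTGCC for 11 (32.4% against 28.4%). The NF-kB motif was found for Casp4 (2.94% against 0.92%). Matches of different motifs were counted separately and may overlap. The motifs were picked with the ratios known, and a match is a description of letters only.

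Sequences are shown upstream of the 5 members that hold an E2F octamer or the cAMP response element. On the brightest probe sets, the log2 ratios of the E2F group were -0.71 (Casp2), 0.32 (Fadd) and 0.37 (Bcl2l1). Those of the cAMP response element group were -0.52 (Cycs) and 0.32 (Birc2). Each run holds the 250 bases before the start, 5′ to 3′ on the gene's strand, with the motif in capitals. The first motif base lies 97 bases before the start in Casp2 (chr6:42264735-42264984, plus strand), 12 in Fadd (chr7:144582442-144582691, minus strand, motif on the opposite strand), 145 at 1 of the 3 starts of Bcl2l1 (chr2:152830718-152830967, minus strand, motif on the opposite strand), 169 in Cycs (chr6:50566570-50566819, minus strand) and 35 at 1 of the 2 starts of Birc2 (chr9:7837058-7837307, minus strand).
Casp2: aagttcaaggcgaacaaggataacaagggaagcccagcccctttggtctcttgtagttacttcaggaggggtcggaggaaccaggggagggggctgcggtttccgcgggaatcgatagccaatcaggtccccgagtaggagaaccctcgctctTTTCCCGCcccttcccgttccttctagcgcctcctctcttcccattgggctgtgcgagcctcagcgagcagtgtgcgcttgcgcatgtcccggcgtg
Fadd: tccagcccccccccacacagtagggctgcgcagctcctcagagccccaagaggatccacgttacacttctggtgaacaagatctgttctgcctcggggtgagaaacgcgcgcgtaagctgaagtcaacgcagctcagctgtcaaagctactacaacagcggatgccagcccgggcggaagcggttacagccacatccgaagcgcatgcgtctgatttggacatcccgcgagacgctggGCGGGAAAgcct
Bcl2l1: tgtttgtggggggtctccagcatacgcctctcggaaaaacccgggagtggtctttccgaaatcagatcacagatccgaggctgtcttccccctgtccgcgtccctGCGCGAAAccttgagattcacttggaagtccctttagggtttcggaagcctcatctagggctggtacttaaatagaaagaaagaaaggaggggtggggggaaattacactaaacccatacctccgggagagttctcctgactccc
Cycs: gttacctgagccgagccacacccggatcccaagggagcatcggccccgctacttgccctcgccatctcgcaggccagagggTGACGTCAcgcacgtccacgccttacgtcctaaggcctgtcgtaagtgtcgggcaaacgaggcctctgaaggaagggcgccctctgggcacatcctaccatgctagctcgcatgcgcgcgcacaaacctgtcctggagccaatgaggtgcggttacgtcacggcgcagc
Birc2: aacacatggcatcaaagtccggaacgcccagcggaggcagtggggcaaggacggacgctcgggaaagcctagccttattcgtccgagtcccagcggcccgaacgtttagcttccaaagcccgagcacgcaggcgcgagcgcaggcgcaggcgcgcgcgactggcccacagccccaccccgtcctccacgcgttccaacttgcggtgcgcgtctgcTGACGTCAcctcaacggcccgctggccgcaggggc

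**Figure D4:**
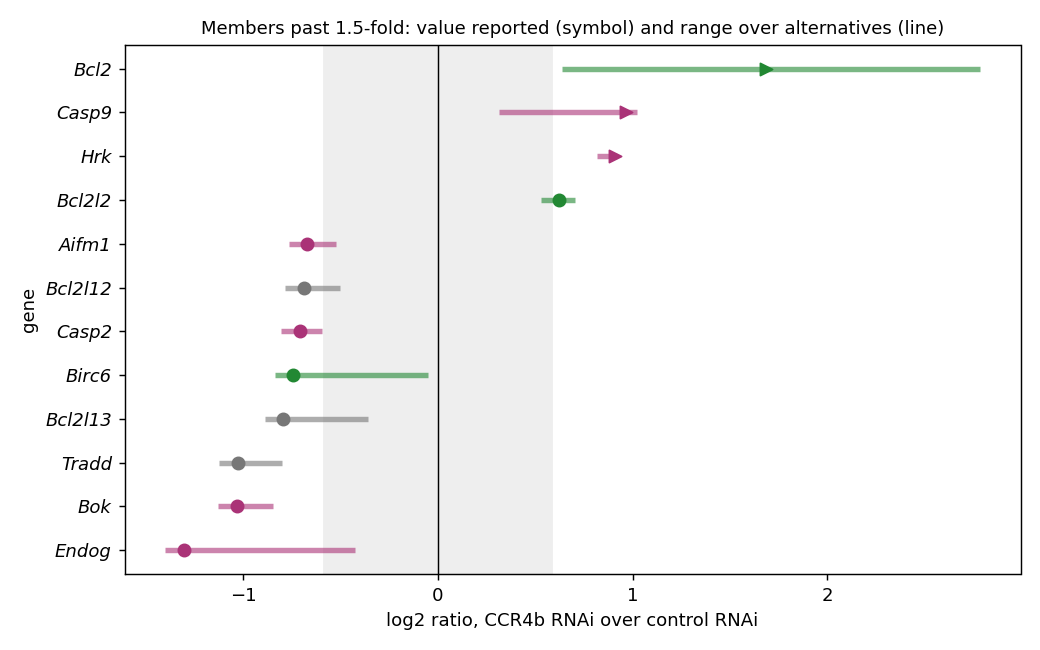
Log2 ratios (CCR4b RNAi over control RNAi) of the 12 members past 1.5-fold, with the reported value as a symbol (triangle for a bound) and the range over up to 9 other ways of processing as a line. Tradd, Bok and Casp2 stay outside the grey band of 1.5-fold under all 9. Bcl2 and Hrk, both bounds, stay outside it under the 7 that gave them a value. At the reported floor both were measured through the CCR4b RNAi array alone, so they had to be higher to be counted. They dropped out with a floor at the 75th percentile and when each array had to reach the floor. Their place outside the band thus does not by itself show a stable difference. The low end for Bcl2 (0.64) is the median over 2 probe sets of opposite sign. The lines of the other 7 members reach into it.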

How the data were processed

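Total RNA of 1 control RNAi and 1 CCR4b RNAi culture of NIH3T3 cells was measured on 1 Affymetrix mouse array each. The deposited probe-set intensities were computed by the authors in GCOS with a global normalization, per the series design text and the submitters' processing notes. Neither the GCOS version nor its target value is given in the sources used here. RNA was extracted with ISOGEN and purified with an RNeasy kit, per the labels' protocols. The number of arrays limits the precision: no spread between cultures can be estimated.

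Probe sets were named through the platform annotation (34958 with 1 symbol, 932 with several, 9211 unnamed), and those with 1 symbol were used. As floor, the 50th percentile of the deposited intensities was taken. Similar signal means 1 of 10 equal classes of mean log2 signal. A call means a 1.5-fold difference on the brightest probe set. All 36 members, the targeted gene and the listed pathway genes past 1.5-fold are named. The members, lists, roles and motifs were chosen with earlier results of these data known. Other settings tried were 3 scalings, 2 floors and none, the median over probe sets, and leaving out probe sets open to cross-hybridisation. Python 3.11.15, pandas 2.3.3 and statsmodels 0.14.6 (loess span 0.3) were used.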

Additional observations from a re-analysis of the deposited data

How the results depend on the processing

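Of the 8 members past 1.5-fold lower, Bok, Tradd and Casp2 stayed so under all 9 alternatives. With the median over probe sets, the log2 ratios of Endog (-0.42), Birc6 (-0.050), Bcl2l13 (-0.36) and Bcl2l12 (-0.50) came within 1.5-fold, Cycs passed it, and the count of lower members was 5 (12.7% of all genes were then lower). Aifm1 came within 1.5-fold with quantile normalization and loess, Birc6 with loess, and Bcl2l12 with a floor at the 75th percentile. The count of higher members, 4 as reported, was 7 with quantile normalization and 7 with the loess correction (12.0% and 12.3% of all genes were higher), where Mcl1, Bcl2l11 and Bmf passed 1.5-fold. It was 1 with a floor at the 75th percentile and 1 with probe sets that reached the floor on both arrays alone, an alternative chosen after seeing the data, because Bcl2, Hrk and Casp9 drop out (6.48% and 10.4% of all genes were higher). The median log2 ratio of the members was 0.15 with quantile normalization, 0.16 with loess and -0.095 above the floor on both arrays. That of survival genes was 0.43 with quantile normalization and 0.43 with loess, 0.16 with the median over probe sets and 0.16 without _x_at and _s_at probe sets. That of death-promoting genes was 0.024 with a floor at the 25th percentile, 0.024 without a floor, -0.40 with a floor at the 75th percentile and -0.31 above the floor on both arrays. The cause was not tested beyond what each alternative's construction shows. Of 279 values of single members under the alternatives, 266 moved by less than the robust SD of like genes, 13 moved further and 0 of the called ones changed sign. Many of these values could not move, because another floor or choice of probe sets leaves a bright gene with 1 probe set unchanged. Members that dropped out under an alternative were not counted, so the 266 does not measure stability. No paired analysis was possible because each group is 1 array.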
